A study of Mus musculus with 3 samples.

Results

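Beta cells high in interferon-induced RNA are described here: insulin cells of mouse islets that carried the largest shares of transcripts of Ifit1, Ifit3 and Isg15. A barcode was taken as a beta cell if it held at least 500 genes, at most 20% mitochondrial UMIs (unique molecular identifiers, each a counted transcript molecule), at least 15% of its UMIs from Ins1 and Ins2 and under 1% each from Gcg, Sst and Ppy, and if its Ftl1 reads were not led by the pseudogene Ftl1-ps1 (at least 5 UMIs of the pair with at least 50% on the pseudogene). Of 24590 barcodes, 11314 passed the gene and mitochondrial filters, 6468 were beta cells and 6225 of these held at least 2000 UMIs. The members are the top 5% of those 6225 cells, ranked over all libraries by the share of UMIs from the 3 selection genes, which gave 312 cells. They were compared with the other 5913 beta cells of at least 2000 UMIs within each library.

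The islets came from male C57Bl6/J retired breeders aged 7 to 8 months, and 1 droplet library (10x Chromium, 3' counting) was made per group. S961 islets came from mice with a pump that released S961, an antagonist of the insulin receptor, for 2 weeks at a labelled 20 nM per week. Recovered islets came from mice labelled with the same S961 dose for 2 weeks, whose pumps had been removed. Control islets came from mice with pumps that held no S961. Every mouse thus had pump surgery, all islets were cultured overnight and dispersed with TrypLE, and the length of recovery and the number of mice behind a library are not given in the labels. With 1 library a group, no test between the groups was possible: values between libraries carry intervals for counting error alone.

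Type I interferons bind a receptor on the cell surface and activate transcription factors, among them STAT2 and IRF9, which enter the nucleus together and bind a short DNA element in the promoters of interferon-stimulated genes. The products of those genes block viral RNA and protein synthesis, sense foreign nucleic acid, mark proteins with the ubiquitin-like ISG15 and raise the display of peptides on MHC class I. In islets the same programme is known from viral infection and from the early stages of autoimmune diabetes, and it can also be raised by a cell's own nucleic acids.

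The 3 selection genes are classical members of that programme. Ifit1 and Ifit3 encode proteins that bind foreign RNA, and Isg15 encodes the modifier itself. Their promoters, taken from RefSeq (GRCm38.p6, 250 bases before to 50 after the start), are shown because all 3 hold GAAA, any 2 bases and GAAA again, the core of the element that the STAT and IRF factors bind. Promoters of 3 further genes that were higher in members follow, picked because they hold the same motif: Ifit3b, a close copy of Ifit3, Rsad2, which encodes the antiviral enzyme viperin, and B2m, the light chain of MHC class I. Capitals mark each match, read on either strand, and overlapping matches run together. The regions are chr19:34640639-34640938 on the plus strand for Ifit1, chr19:34583279-34583578 on the plus strand for Ifit3, chr4:156200769-156201068 on the minus strand for Isg15, chr19:34607707-34608006 on the plus strand for Ifit3b, chr12:26456403-26456702 on the minus strand for Rsad2 and chr2:122147437-122147736 on the plus strand for B2m.
Ifit1: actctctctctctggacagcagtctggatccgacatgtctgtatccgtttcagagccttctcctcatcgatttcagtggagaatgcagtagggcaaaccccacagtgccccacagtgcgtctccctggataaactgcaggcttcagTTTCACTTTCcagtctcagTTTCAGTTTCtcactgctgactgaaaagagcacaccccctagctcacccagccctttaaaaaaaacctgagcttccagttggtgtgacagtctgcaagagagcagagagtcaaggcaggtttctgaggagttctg
Ifit3: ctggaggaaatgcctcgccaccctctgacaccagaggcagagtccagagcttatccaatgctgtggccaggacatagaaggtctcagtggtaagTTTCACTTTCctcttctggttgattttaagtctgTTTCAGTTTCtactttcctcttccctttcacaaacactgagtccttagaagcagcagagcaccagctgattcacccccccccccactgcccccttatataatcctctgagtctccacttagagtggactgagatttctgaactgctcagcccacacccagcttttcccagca
Isg15: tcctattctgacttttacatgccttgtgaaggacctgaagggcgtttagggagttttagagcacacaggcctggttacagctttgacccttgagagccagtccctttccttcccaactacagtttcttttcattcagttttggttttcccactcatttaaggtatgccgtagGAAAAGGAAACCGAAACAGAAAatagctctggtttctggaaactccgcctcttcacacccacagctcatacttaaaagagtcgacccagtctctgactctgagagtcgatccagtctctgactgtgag
Ifit3b: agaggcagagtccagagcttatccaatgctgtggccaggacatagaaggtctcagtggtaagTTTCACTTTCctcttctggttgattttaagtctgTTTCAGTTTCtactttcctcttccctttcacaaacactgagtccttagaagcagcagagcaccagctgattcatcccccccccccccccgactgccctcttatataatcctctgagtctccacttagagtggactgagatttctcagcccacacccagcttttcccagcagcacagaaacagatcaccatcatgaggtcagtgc
Rsad2: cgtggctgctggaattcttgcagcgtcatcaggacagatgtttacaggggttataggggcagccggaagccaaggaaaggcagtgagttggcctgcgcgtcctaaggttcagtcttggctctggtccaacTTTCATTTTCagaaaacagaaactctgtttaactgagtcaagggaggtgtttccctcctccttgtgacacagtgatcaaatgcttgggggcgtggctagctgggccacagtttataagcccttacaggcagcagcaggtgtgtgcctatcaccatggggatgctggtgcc
B2m: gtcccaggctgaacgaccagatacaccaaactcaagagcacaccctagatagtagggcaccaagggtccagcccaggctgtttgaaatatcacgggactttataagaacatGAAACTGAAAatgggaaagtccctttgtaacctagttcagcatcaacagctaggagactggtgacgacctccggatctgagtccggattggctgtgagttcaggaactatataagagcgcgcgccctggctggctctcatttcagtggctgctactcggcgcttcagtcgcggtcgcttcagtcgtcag

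Isg15 had 3 overlapping matches that began 78 to 66 bases before the start. Ifit1 had 2 matches, at 104 and 85 bases before the start, and Ifit3 had 2, at 156 and 122 bases. The same pair stood in Ifit3b at 188 and 154 bases before its start. The motif occurred in 3.44% of all 32851 promoters of this length. Among genes called higher in members, as defined below, 29 of the 162 with a promoter in the table held it (17.9%), which was made up of 21 of 45 genes in the interferon lists (46.7%) and 8 of 117 outside them (6.84%). It stood in 10 of 41 tested genes of those lists that were not called (24.4%), in 6 of 54 genes called lower (11.1%) and in 3.52% of the 9338 tested genes with a promoter. Irf7, Oasl2, Xaf1, Psmb8, Tap1 and Mt2, all called higher, had no match in this window. A match is a description of these letters and not of a bound site.

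Members made up 39 of 1470 beta cells of the S961 library (2.65%, exact 95% interval 1.89 to 3.61), 112 of 2008 of the recovered library (5.58%, 4.61 to 6.67) and 161 of 2747 of the control library (5.86%, 5.01 to 6.81). The intervals (Clopper-Pearson) cover counting error only. The libraries differ in depth, and a single selection UMI makes a larger share of a shallow cell: the median beta cell had 14500.5 UMIs in the S961 library, 10450.5 in the recovered library and 7736 in the control library. With every cell thinned to 2000 UMIs, 25 S961 cells (1.70%, 1.10 to 2.5), 77 recovered cells (3.83%, 3.04 to 4.77) and 83 control cells (3.02%, 2.41 to 3.73) held a selection UMI. The S961 library was lowest by either measure, but after thinning its interval overlapped that of the control library. The intervals of the recovered and control libraries overlapped by both. At full depth a selection UMI was found in 10.7% of S961, 12.8% of recovered and 9.50% of control beta cells, before any correction for depth.

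**Figure D1:**
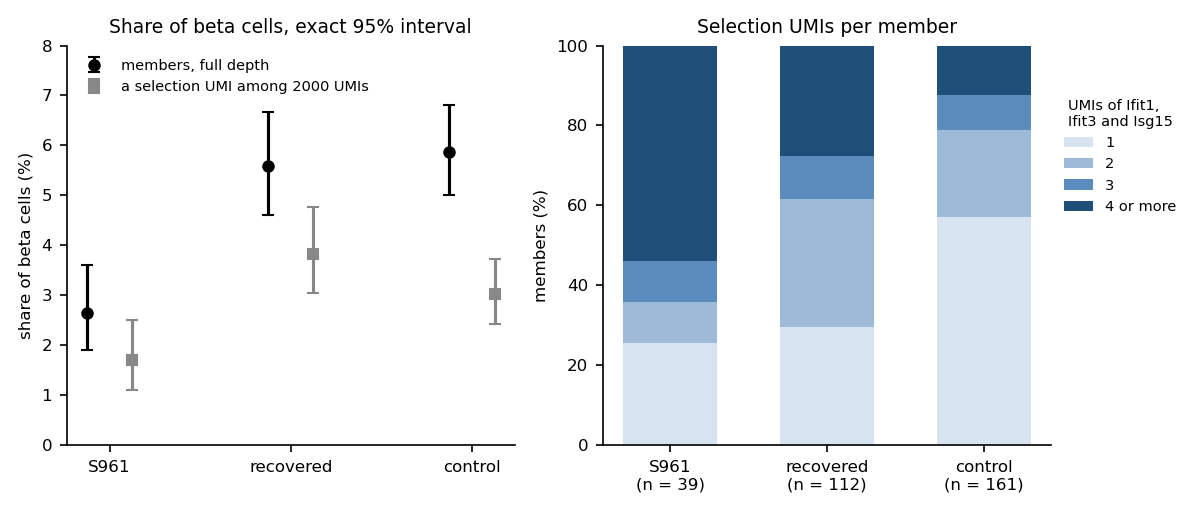
Left, share of beta cells (%) that were members at full depth (black) or held a selection UMI after thinning to 2000 UMIs (grey), with exact 95% intervals, in the S961, recovered and control libraries. Right, members of each library by their number of Ifit1, Ifit3 and Isg15 UMIs; members with 1 such UMI make up 25.6% in S961, 29.5% in recovered and 57.1% in control.

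Within the 312 cells the selection level was very uneven. The last member had 1 selection UMI among 7700 UMIs (129.9 CPM, UMIs scaled to a cell total of 1000000, S961 library) and the next cell outside had 1 among 7712 (129.7 CPM, control library), so the limit falls inside a continuum of cells with a single UMI. The highest member had 51 among 9620 UMIs (5301 CPM) and the next 70 among 16369 (4276 CPM), both in the recovered library. Of the members, 10 in S961, 33 in recovered and 92 in control rested on 1 UMI, whereas 21, 31 and 20 held at least 4 in the same order of libraries. Cells with at least 10 selection UMIs numbered 3 in S961, 12 in recovered and 1 in control.

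The levels of the selection genes describe the choice and were not tested. Ifit1 stood at 179.5, 284 and 179.3 CPM in S961, recovered and control members, against 5.82, 6.20 and 3.96 in the other beta cells. Ifit3 stood at 87.3, 202 and 76.7 CPM in members, against 0.698, 0.704 and 0.565 in other beta cells. Isg15 stood at 56.6, 32.5 and 14.3 CPM in members, against 0.326, 0.376 and 0.188 in other beta cells. To see the level on molecules that the choice did not use, each cell's UMIs were split at random into 2 equal parts, members were chosen on the first and the 3 genes counted on the other. They then stood at 245, 367 and 132 CPM in S961, recovered and control members, against 8.48, 10.5 and 10.2 in other beta cells. Choosing cells by Ifit3 and Isg15 alone gave 41 S961, 71 recovered and 67 control cells, fewer than the top 5%. Ifit1 was higher in these cells by log2 3.18 (2.73 to 3.61) in S961, 4.11 (3.81 to 4.39) in recovered and 2.61 (2.08 to 3.11) in control. Ifit3 and Ifit3b are near-identical copies, so the counting may split or move reads between them, and the values of both are uncertain to that extent.

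The rule itself fixes a high insulin level, so the identity of members was read on the 6 beta markers outside it (Iapp, Mafa, Nkx6-1, G6pc2, Slc2a2 and Ucn3). They summed to 81379, 76116 and 84872 CPM in S961, recovered and control members, against 89353, 87367 and 93836 in other beta cells. The sums were 5610, 7256 and 10770 CPM in cells with at least 1% Gcg, but 50903, 60044 and 66402 CPM in cells with at least 1% Sst. Iapp made up most of the members' sum, with 220188 UMIs against 918 for G6pc2 and 661 for Mafa, so it sets members apart from delta cells only weakly. The median share of insulin UMIs was 29.7%, 29.7% and 30.1% in members, against 35.3%, 31.8% and 31.5% in other beta cells. Median depth was 15095, 8357 and 6409 UMIs in members, against 14416, 10569.5 and 7845.5 in other beta cells. The median mitochondrial share was 5.34%, 7.07% and 6.66% in members and 4.47%, 7.25% and 6.90% in other beta cells. A cell was counted as mixed if it held at least 5 UMIs of 1 marker set. The sets were those of endothelial, stellate and fibroblast, macrophage and dendritic, T and NK, and B cells, and Ighm with Igkc. Markers of alpha, delta, gamma, acinar, ductal and Schwann cells were not counted, so mixing with those cells was not addressed. Mixed cells were 8 of 39 S961, 2 of 112 recovered and 3 of 161 control members, against 69 of 1431, 21 of 1896 and 20 of 2586 other beta cells. Calls that ended without these mixed cells are named below. The 10 macrophage and dendritic markers summed to 209, 44.4 and 43.7 CPM in members, against 79.0, 44.8 and 41.9 in other beta cells; 2, 4 and 5 of the 10 were at 0 in S961, recovered and control members, C1qc in all 3 libraries. The 7 stellate and fibroblast markers summed to 95.4, 1.97 and 25.9 CPM in members, against 6.05, 1.60 and 10.6 in other beta cells, with 45 of the 59 S961 UMIs and 22 of the 29 control UMIs in 1 cell each. The 6 endothelial markers stood at 1.62, 1.97 and 31.2 CPM in members, against 23.5, 4.13 and 6.64 in other beta cells, with 22 of the 35 control UMIs in 1 cell. The 2 gamma-cell markers stood at 178, 659 and 1148 CPM in members, against 468, 480 and 532 in other beta cells, with 694 of the 1287 control UMIs in 1 cell. T and NK cell markers were found in members of the S961 library only, as 22 UMIs of 1 cell, and the 4 red blood cell markers were at 0 in members. The part of these cells in the results was not tested beyond the fit without mixed cells.

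Genes other than the 3 of the rule were tested on UMIs summed over members and over other beta cells of each library, with edgeR's quasi-likelihood test and the library as a block. The test rests on 6 sums with 2 residual degrees of freedom and asks for a difference common to the 3 libraries; no library is a replicate of another. Of 12033 genes tested, 208 were higher in members (1.73%) and 70 were lower (0.582%) at an adjusted p under 0.05. Without the recovered library 133 were higher and 32 lower, and without the control library 140 and 46. Over all tested genes the median log2 fold change was -0.02. The 11 lists on interferon, antigen presentation and NF-kB held 164 genes, of which 110 passed the filter on low counts, and 58 of these were higher and 0 lower; without the recovered library 37 were higher. The other lists contributed 22 of the 208 higher genes, and 128 were in no list. The filter asked for 0.895 CPM in at least 3 sums. Of the tested genes, 488 fell short of it in a sum of other beta cells and passed only with members counted. Such a filter favours genes high in members. Of the other 11545, 178 were higher. The 58 higher genes of the 11 lists include some that passed in this way, and each list is given without them below.

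Antiviral effectors, with 49 genes, were the longest list. Of 35 tested, 23 were higher and 0 lower, with a median log2 fold change of 1.18. Leaving out the 4 that passed the filter only with members counted, 20 of 31 were higher (median 1.03). Rsad2 had 153.7, 146.9 and 57.1 CPM in S961, recovered and control members, against 7.12, 7.51 and 7.25 in other beta cells, a log2 fold change of 3.88 ± 0.17 (SE, adjusted p = 1.4e-18, edgeR). Members lay above every sum of other beta cells, as was the case for 10.8% of all tested genes, yet the transcript was found in only 9 of 39 S961, 34 of 112 recovered and 28 of 161 control members. Bst2, the tetherin that holds budding virus at the cell surface, had 87.3, 96.6 and 74.0 CPM in members, against 16.6, 13.3 and 21.8 in other beta cells (2.25 ± 0.15, adjusted p = 2.2e-13, edgeR). Xaf1, which opposes inhibitors of apoptosis, had 25.9, 44.4 and 24.1 CPM in members, against 2.93, 3.52 and 2.97 in other beta cells (3.23 ± 0.28, adjusted p = 6.9e-11, edgeR). The groups did not overlap for either gene.

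Other effectors were called on smaller or less even differences. Parp14, Parp9 and Parp12, of the ADP-ribosyltransferase family, were higher by log2 1.84 ± 0.18, 1.32 ± 0.19 and 1.26 ± 0.18. Eif2ak2, the kinase PKR that stops translation on double-stranded RNA, was higher by 1.07 ± 0.20 (adjusted p = 0.00052, edgeR). Ifitm3 was called (3.16 ± 0.32) but was found in 12 members only, with 16 of its 34 S961 UMIs in 1 cell, and its call was lost without mixed cells (adjusted p = 0.67, edgeR). Mx1, a dynamin-like GTPase that blocks viral particles, had a log2 fold change of 1.89 and was not called (adjusted p = 0.12, edgeR). Rnf213 was called (1.53 ± 0.28) on the S961 and recovered libraries: it had 22.6, 51.3 and 8.03 CPM in members, against 8.33, 9.49 and 8.05 in other beta cells.

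Of the other IFIT genes, 1 of 4 was tested. Ifit3b had 15, 36 and 22 UMIs in S961, recovered and control members, against 7, 6 and 8 UMIs in the far larger sums of other beta cells, and it passed the filter through members alone. Of the OAS genes, whose products make the messenger that activates RNase L, 4 of 6 tested of 9 listed were higher (median log2 2.65). Without the 1 that passed only with members counted, 3 of 5 were higher. Oasl2 had 43.7, 90.7 and 29.4 CPM in members, against 3.16, 4.56 and 4 in other beta cells (3.65 ± 0.25, adjusted p = 1.3e-13, edgeR). Oas1a was higher by 2.54 ± 0.43 and Oasl1 by 2.77 ± 0.45, each on under 20 UMIs in members of any library. Oas2 is the gene that passed only with members counted, so its fold change is not given as a result. Close copies among the Oas1 genes may share reads.

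**Figure D2:**
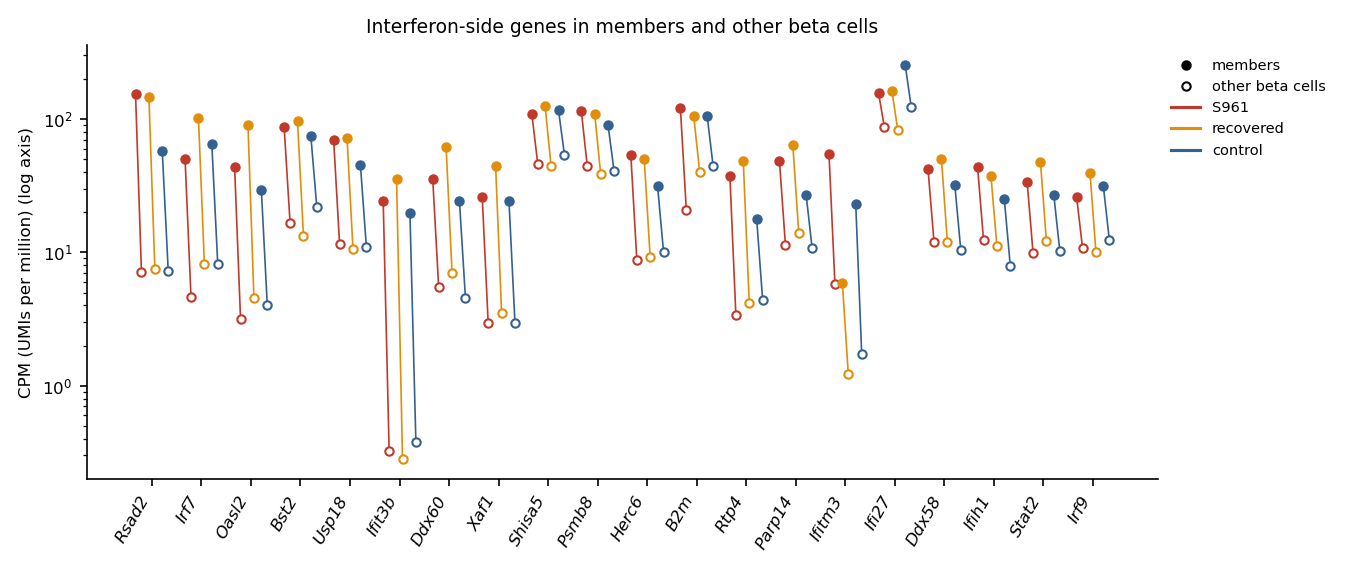
CPM (log axis) of 20 interferon-side genes in members (filled) and other beta cells (open) of the S961 (red), recovered (orange) and control (blue) libraries, 1 pair of sums per library joined by a line. The genes were picked by the lowest adjusted p among listed genes called higher with UMIs in every sum. The filled point lies above the open one in each library for all 20, a direction that largely follows from this choice. Of them, Ifit3b passed the filter through members alone, and Ifitm3 was not called without mixed cells. Rsad2 and Oasl2 members are lowest in the control library.

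All 4 genes of ISG15 conjugation were tested and higher (median log2 1.74). Usp18, which removes ISG15 and also restrains the interferon receptor, had 69.6, 72.0 and 45.5 CPM in S961, recovered and control members, against 11.5, 10.6 and 11 in other beta cells (2.40 ± 0.17, adjusted p = 2.2e-13, edgeR). Herc6, the mouse ligase for ISG15, was higher by 2.15 ± 0.20, Uba7, its activating enzyme, by 1.33 ± 0.36, and Ube2l6, its conjugating enzyme, by 1.26 ± 0.28. Without its top cell Ube2l6 was no higher in S961 members than in other S961 beta cells.

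Of 7 tested nucleic acid sensors of 10 listed, 5 were higher (median log2 1.77). Without the 1 that passed only with members counted, 4 of 6 were higher. Ddx58, which encodes RIG-I, had 42.1, 50.3 and 32.1 CPM in members, against 12.0, 12.0 and 10.5 in other beta cells (1.77 ± 0.18, adjusted p = 5.9e-09, edgeR). Ifih1, which encodes MDA5, had 43.7, 37.5 and 25 CPM in members, against 12.4, 11.2 and 7.96 in other beta cells (1.67 ± 0.20, adjusted p = 2e-07, edgeR). Their regulator Dhx58 was higher by 3.01 ± 0.45 and Ddx60 by 2.73 ± 0.23. The Z-nucleic acid sensor Zbp1 is the gene that passed only with members counted, so its fold change is not given as a result. Tlr3 (log2 0.77) and the adaptor Mavs (-0.84) were not called.

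Part of the receptor and signalling list was called. Of 19 tested of 21 listed, 4 were higher, among them Irf7, Stat2 and Irf9, and 15 were not called. The 2 that passed only with members counted, Irf8 and Socs1, were among those not called. Irf7, which amplifies interferon production and is itself interferon-induced, had 50.1, 102.5 and 65.1 CPM in S961, recovered and control members, against 4.61, 8.17 and 8.15 in other beta cells (3.30 ± 0.17, adjusted p = 8.4e-17, edgeR). Stat2 was higher by 1.66 ± 0.20 and Irf9 by 1.5 ± 0.20. The receptor chains Ifnar1 (-0.27), Ifnar2 (-0.29), Ifngr1 (0.45) and Ifngr2 (0.51), the kinases Jak1 (-0.05) and Tyk2 (-1.22), and the constitutive factor Irf3 (-0.15) were not called, and the list's median was 0.19.

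No interferon transcript was found in members. Of 21 interferon genes in the table, 21 had no UMI in members and 19 had none in any beta cell, and Ifnb1 was at 0 in members and in other beta cells of every library. At this depth a transcript of low abundance would not have been detectable. The NF-kB targets, a list that responds to inflammatory cytokines, had 0 of 10 tested genes called by edgeR; 2 had an unadjusted p under 0.05, both higher, DESeq2 called 0, and the median log2 fold change was 0.44. Of 10 chemokines, only Cxcl16 reached enough counts. It was called (1.61 ± 0.33) with 3.24, 18.7 and 24.1 CPM in members, against 4.23, 3.76 and 7.25 in other beta cells. The S961 members held 2 of its UMIs, too few to set a direction in that library. Cxcl9, Cxcl10 and Cxcl11, typical targets of interferon gamma, had too few counts to test.

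Of 9 tested interferon-inducible GTPases of 15 listed, which attack the vacuoles of intracellular parasites, 5 were higher (median log2 1.67). Without those that passed only with members counted, 3 of 6 were higher. Igtp had 17.8, 28.6 and 9.81 CPM in members, against 5.26, 6.48 and 4.62 in other beta cells (1.67 ± 0.29, adjusted p = 0.00026, edgeR). Irgm1 was higher by 1.31 ± 0.25 and Gbp3 by 2.64 ± 0.48. Iigp1 had 3, 19 and 4 UMIs in S961, recovered and control members, against 7, 1 and 0 UMIs in other beta cells, and it passed the filter through members alone.

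Genes of MHC class I presentation were higher or not called. Of 18 tested of 19 listed genes, 11 were higher and 0 lower (median log2 0.81), and DESeq2 called 9. Without the 1 that passed only with members counted, 11 of 17 were higher. Without the recovered library 7 were higher, as with split UMIs, with thinned cells and without the library block. B2m had 121.3, 104.5 and 106.1 CPM in S961, recovered and control members, against 20.7, 39.9 and 44.7 in other beta cells (1.56 ± 0.15, adjusted p = 6.5e-10, edgeR), without overlap between the groups. In the S961 library 29 of its 75 UMIs came from 1 mixed cell, without which the level was 78.6 CPM. The immunoproteasome subunits Psmb8, Psmb9 and Psmb10 were higher by 1.26 ± 0.11, 1.29 ± 0.18 and 0.82 ± 0.12, and the peptide transporter genes Tap1 and Tap2 by 1.56 ± 0.28 and 0.80 ± 0.19. Among heavy chains H2-T23 rose by 0.89 ± 0.12 and H2-D1 by 0.33 ± 0.08, while H2-K1 (0.22) was not called; reads of H2 genes may be split among similar copies.

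Genes were then ranked by likeness to the selection genes, taken as the lowest of the 3 within-library ratios of members over other beta cells among 11280 genes with at least 100 UMIs in beta cells. The 10 most alike were Xaf1, Irf7, Rsad2, Oasl2, Ddx60, Oas1a, Ifitm3, Gbp3, Usp18 and Rtp4, with lowest ratios of 8.12 for Xaf1 to 4.03 for Rtp4. All 10 were in the interferon lists, as were 21 of the top 25. For scale, these lists held 110 of the 12033 genes tested above, and they were chosen with earlier results of these data known. Ifitm3 is among the 10 although its call was lost without mixed cells.

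Levels were next followed from other beta cells without a selection UMI to members with 4 or more. The interferon panel, the summed UMIs of 89 listed effector, conjugation, sensor and GTPase genes, pooled over libraries stood at 967 CPM in other beta cells with 0 selection UMIs, 1212 in those with 1 or more, 1364 in members with 1, 1771 in members with 2 or 3, and 3376 in members with 4 or more. In the last bin it reached 2505 (2363 to 2654) in S961, 4890 (4654 to 5136) in recovered and 2876 (2636 to 3132) in control members. Stat2, Irf7 and Irf9 together stood at 27.2, 44.0, 91.0, 106 and 227 CPM over the same bins. Of the 135 members with a single selection UMI, 92 were control cells, so pooled bins differ in their libraries. In the recovered library the panel did not step up there. It stood at 1164 CPM (1118 to 1211) in other beta cells with 1 or more and 1169 (1022 to 1331) in members with 1. In the S961 library the summed Stat2, Irf7 and Irf9 stood at 98.7 CPM (32.0 to 230.2) in the 10 members with 1 and 118.9 (89.6 to 154.7) in those with 4 or more. The panel was not used to bin the cells. Median depth was 5929 UMIs in members with 1 selection UMI and 13991 in other beta cells with at least 1, and its part in the steps was not tested.

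**Figure D3:**
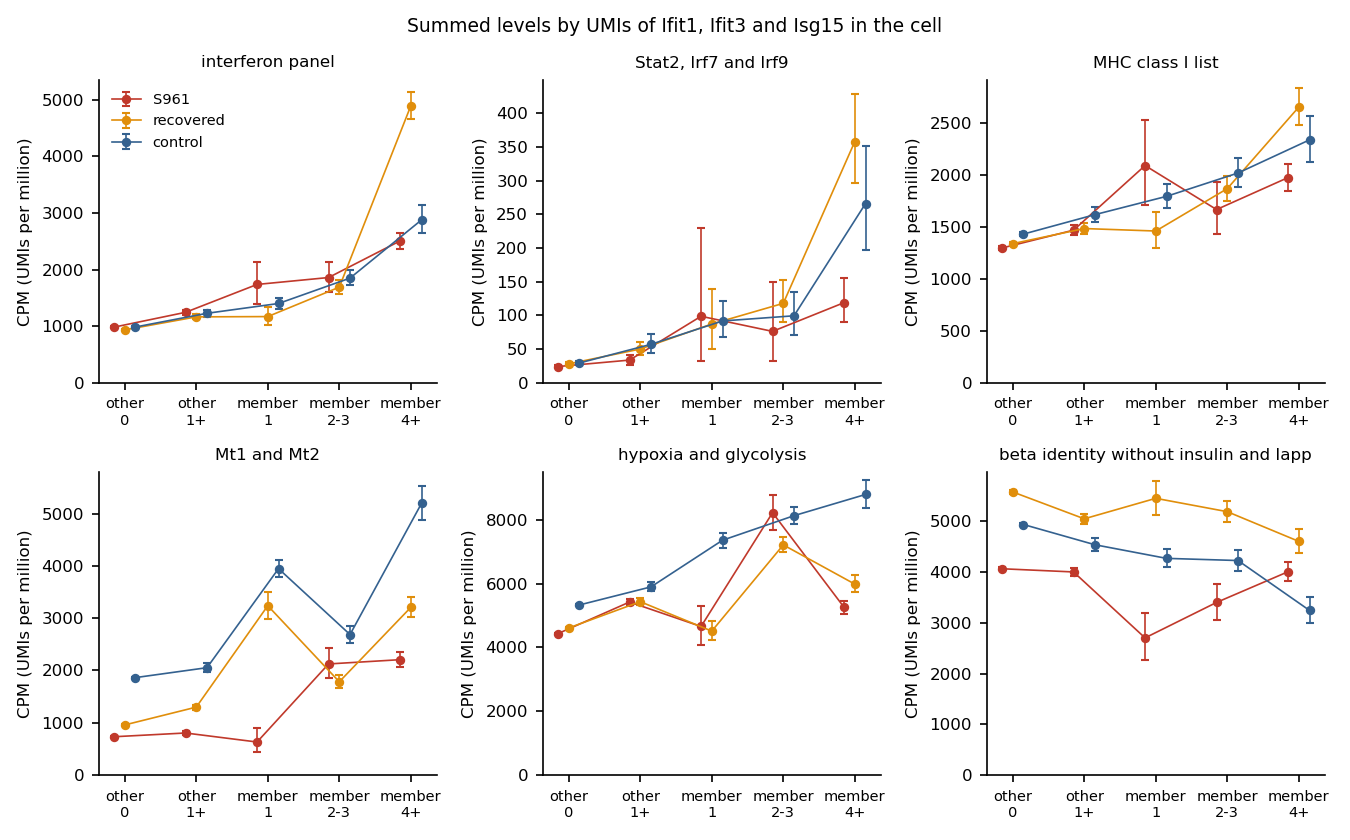
Summed CPM of 6 gene groups in other beta cells with 0 or at least 1 selection UMI and in members with 1, 2 or 3, and at least 4, for the S961, recovered and control libraries, with exact 95% counting intervals. The interferon panel and the summed Stat2, Irf7 and Irf9 are highest in members with at least 4 selection UMIs in each library, for the summed genes in S961 with intervals that overlap those of the other members; metallothioneins, glycolysis genes and beta-cell identity genes show no gradient shared by all 3 libraries.

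The panel was also read cell by cell. It had a median of 1818, 1559 and 1539 CPM in S961, recovered and control members, against 926, 892 and 930 in other beta cells. It exceeded 1000 CPM in 84.6% of S961, 70.5% of recovered and 75.8% of control members, against 43.6%, 38.7% and 44.0% of other beta cells. The highest values were 9941, 17152 and 8433 CPM in members, against 4180, 3711 and 5117 in other beta cells.

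Between libraries, genes of the panel with Stat2, Irf7 and Irf9 were read in members with the ratio and its exact interval; a gene was counted if it passed 1.5-fold with an interval that excluded 1. S961 over control members gave 9 of 37 measured genes higher and 1 lower, against 4.78% and 3.65% of all measured genes. Recovered over control members gave 25 of 50 higher and 2 lower, against 5.29% and 1.8%. Recovered over S961 members gave 9 of 45 higher and 1 lower, against 4.69% and 3.29%. These contrasts share libraries. Rsad2, Herc6 and Parp14 were among the genes higher in both S961 and recovered members than in control members, and Oasl2 and Irf7 were higher in recovered members than in members of either other library. Control members hold more cells with a single selection UMI, and the part of that make-up in the differences was not tested. In members with at least 4 selection UMIs, the panel levels given above were highest in the recovered library. In other beta cells S961 over control gave 3 of 63 higher and 2 lower, against 6.55% and 3.02% of all measured genes. Recovered over control gave 1 of 64 higher and 5 lower (Oas2, Bst2, Ifi27, Zbp1 and Gbp3), against 2.94% and 1.35%. Recovered over S961 gave 5 of 65 higher and 2 lower, against 3.34% and 4.56%.

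Both listed metallothionein genes, Mt1 and Mt2, and Hmox1 were higher in members. They were the 3 higher genes among 12 tested for metallothioneins and oxidative stress; Gpx3 was lower, 8 were not called, and the median log2 fold change was 0.05. Mt1, which binds zinc and buffers oxidants, had 1674, 1893 and 2754 CPM in S961, recovered and control members, against 619, 782 and 1461 in other beta cells (1.13 ± 0.08, adjusted p = 4.3e-13, edgeR). Mt2 had 390, 630 and 947 CPM in members, against 122, 210 and 413 in other beta cells (1.40 ± 0.09, adjusted p = 8.5e-15, edgeR). Hmox1, the haem-degrading enzyme, had 370, 246.5 and 334.5 CPM in members, against 110, 124 and 120 in other beta cells (1.34 ± 0.10, adjusted p = 1e-12, edgeR). In the S961 library 127 of its 229 UMIs came from 1 cell, without which it stood at 176 CPM.

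Hypoxia and glycolysis genes were higher by smaller steps: 10 of 15, all of them tested, were called higher and 0 lower, with a median log2 fold change of 0.46. Slc2a1, the glucose transporter that rises in low oxygen, had 50.1, 58.2 and 110.6 CPM in members, against 25.5, 25.3 and 46.3 in other beta cells (1.12 ± 0.13, adjusted p = 9.7e-08, edgeR). Bnip3, a mitophagy receptor and hypoxia target, had 401, 371 and 568 CPM in members, against 271, 216 and 290 in other beta cells (0.72 ± 0.09, adjusted p = 3.7e-07, edgeR). Ldha, which makes lactate and is normally kept low in beta cells, was higher by 0.91 ± 0.14. Without the control library 4 of the 15 were called, and without the library block 0. In the S961 and recovered libraries the summed level was highest in members with 2 or 3 selection UMIs (8225 and 7215 CPM) and lower in those with at least 4 (5257 and 5985).

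Of 15 tested heat shock and immediate early genes, 4 were higher, all from the heat shock side: Hspb1 (1.31 ± 0.15), Hspa1a (0.87 ± 0.15), Hspa1b (0.78 ± 0.18) and Dnajb1 (0.74 ± 0.16). Without the control library 1 was called, without the S961 library 8, and 1 with other beta cells matched on UMIs per cell. Of 19 tested genes of the ER stress response, 1 was called, Ddit3, which encodes the factor CHOP. It had 142, 322 and 578 CPM in S961, recovered and control members, against 128, 149 and 200 in other beta cells (1.00 ± 0.13, adjusted p = 8.3e-07, edgeR), and without its top cell it was no higher in S961 members (114 CPM). Of 16 ATF4 targets 0 were higher by edgeR, with 0 at an unadjusted p under 0.05 and 0 by DESeq2, and Chac1 was lower (-0.62 ± 0.16). Of 13 p53 and senescence genes, Phlda3 (1.37 ± 0.24) and Cdkn1a (0.45 ± 0.11) were higher. Cdkn2a passed only with members counted and was not called. Of 10 tested cell division genes of 15 listed, 0 were higher by edgeR (0 at an unadjusted p under 0.05, 0 by DESeq2) and Ccnd1 was lower (-0.39 ± 0.10). Mki67 and Mcm5 passed only with members counted.

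Of 9 tested genes of immaturity and dedifferentiation of 12 listed, Ldha and Vim were higher, Vim on 54 of 82 UMIs from 1 cell, and Gc was lower (-0.62 ± 0.11). Gast passed only with members counted and was not called.

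Beta-cell identity genes that changed were lower. All 26 were tested, 9 were lower and 0 higher (0 at an unadjusted p under 0.05), with a median log2 fold change of -0.19; DESeq2 called 2 lower. Ins1 and Ins2 choose every cell and are a large part of the total behind the selection share, so they are no independent evidence; without them 8 of 24 were lower (median -0.18). Slc2a2, the glucose transporter of mouse beta cells, had 25.9, 80.9 and 61.5 CPM in S961, recovered and control members, against 42.6, 122.6 and 100.5 in other beta cells (-0.72 ± 0.12, adjusted p = 0.00014, edgeR). Ucn3, a maturity marker that signals to delta cells, had 61.5, 104.5 and 74.9 CPM in members, against 86.3, 138 and 97.4 in other beta cells (-0.48 ± 0.11, adjusted p = 0.0074, edgeR). For both genes members were lower in each library, although the groups overlapped across libraries. The insulin-processing enzymes Pcsk1 (-0.38 ± 0.09) and Pcsk2 (-0.33 ± 0.08), the zinc transporter Slc30a8 (-0.37), Iapp (-0.23) and G6pc2 (-0.30) were lower too, and Ins1 stood at -0.24 ± 0.06. Mafa, an insulin gene activator, was called lower (-0.39 ± 0.10) on the recovered and control libraries, with 141, 311 and 231 CPM in members, against 127, 377 and 362 in other beta cells. Pdx1 (-0.29), Nkx6-1 (-0.17), Neurod1 (-0.03) and Ins2 (-0.18 ± 0.06) were not called. The count depended on the libraries and depth: 4 were lower when other beta cells were matched to members on UMIs per cell, and 1 was lower without the recovered library.

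**Figure D4:**
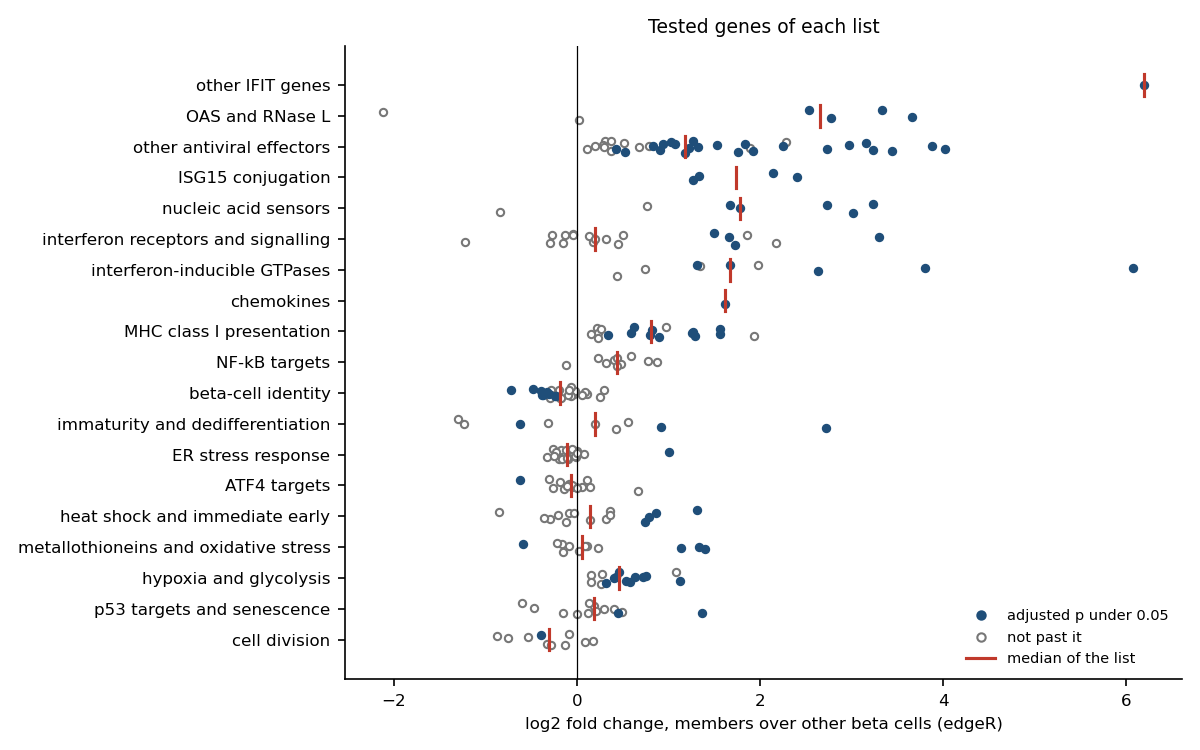
Log2 fold change of members over other beta cells (edgeR) for the tested genes of each list, with genes at an adjusted p under 0.05 filled and the list median as a red bar. Medians of the antiviral, conjugation, sensor, OAS and GTPase lists lie above 1 and those of beta-cell identity, ER stress and cell division lie below 0.

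**Figure D5:**
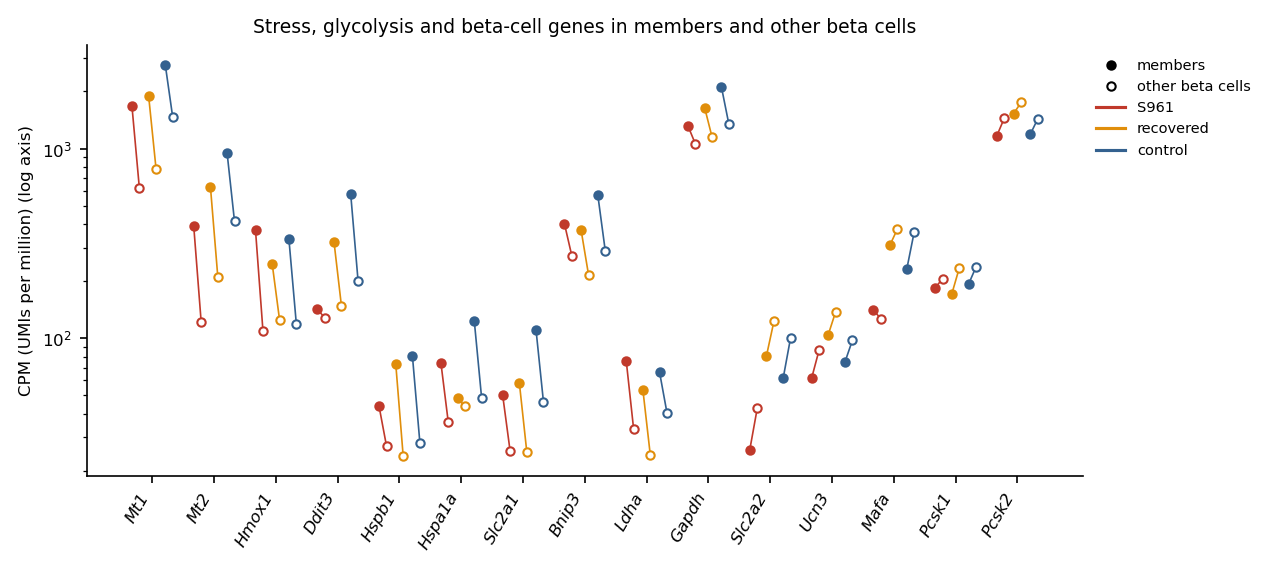
CPM (log axis) of stress, glycolysis and beta-cell genes in members (filled) and other beta cells (open) of the S961, recovered and control libraries. Mt1, Mt2, Hmox1, Slc2a1 and Bnip3 are higher in members of each library; Slc2a2, Ucn3, Pcsk1 and Pcsk2 are lower in members of each library and Mafa in recovered and control only.

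Part of the calls rested on mixed or single cells. For 19 of the 208 higher genes, over 50% of the members' UMIs came from 1 cell. The immunoglobulin genes Ighm and Igkc were called at log2 9.70 ± 0.47 and 8.87 ± 0.82 on 1368 and 2495 UMIs of 1 S961 member of 32859 UMIs, and neither was called without mixed cells (adjusted p = 0.91 and 0.74, edgeR). Both passed the filter only with members counted, together with the other beta cells of the S961 library (1.26 and 1.30 CPM). Vim, listed under dedifferentiation, had 54 of its 82 UMIs in 1 cell. Of the 70 lower genes, 15 encode acinar proteins such as Cela3b (-2.02 ± 0.32) and Prss2 (-1.75 ± 0.29). The 8 acinar markers summed to 146, 216 and 60.7 CPM in S961, recovered and control members, against 1573, 161 and 72.6 in other beta cells, while the median cell held 161, 204 and 0 CPM in members and 127, 132 and 0 in other beta cells. Without mixed cells 53 of the 70 lower genes stayed called. The Sst transcript of delta cells was lower in members (-1.17 ± 0.16), but the rule limits Sst in every cell. Of the 208 higher genes, 156 stayed called without mixed cells.

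Single libraries decided some calls. Of the 104 genes named for the comparison and called, 52 lost the call in at least 1 fit that left out a library and 52 kept it in every such fit that gave a value. Rsad2, Irf7, Oasl2, Bst2, Usp18, Xaf1, Stat2, Irf9, Ddx58, Ifih1, B2m, Psmb8, Mt1, Mt2, Hmox1, Slc2a1, Bnip3 and Slc2a2 were among those that kept it. Without the recovered library the calls of Eif2ak2, Rnf213, Uba7, Ube2l6, Gbp3, Irgm1, Igtp, Cxcl16, H2-D1, Tap2, Ucn3, Pcsk1, Pcsk2, Chac1, Dnajb1, Gpx3, Ccnd1, Mafa, Slc30a8, Iapp, G6pc2 and Ins1 were lost, and the log2 fold change of Rnf213 was 0.67. Without the control library those of Uba7, Ube2l6, Cxcl16, H2-D1, Hspa1a, Hspa1b, Dnajb1, Phlda3, Cdkn1a, Ccnd1, Slc30a8, G6pc2 and Mafa were lost. Without the S961 library those of Tap2, Igkc, Chac1, Gpx3, Ins1, Iapp, Cela3b (-0.16) and Prss2 (-0.27) were lost. Leaving out mixed cells ended the calls of Ifitm3, Uba7, H2-D1, Ighm, Igkc, Chac1, Gpx3, Ccnd1, Iapp and Ins1 among the genes described here. Vim could not be tested without mixed cells, Ighm without the S961 library or Iigp1 without the recovered library.

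Islet cells of other types carried the selection genes as well. At 2000 UMIs per cell a selection UMI was found in 1.70%, 3.83% and 3.02% of beta cells of the S961, recovered and control libraries, in 3.79%, 2.30% and 4.25% of cells with at least 1% Gcg, and in 6.87%, 5.50% and 6.63% of cells with at least 1% Sst. The shares were 12.6%, 18.8% and 11.4% in cells with at least 10 endothelial marker UMIs and 19.8%, 12.2% and 25% in those with at least 10 macrophage and dendritic marker UMIs, the last on 16 control cells. No cell type that lacks these genes was at hand as a background for free RNA. In each library the shares of beta cells and endothelial cells differed beyond their intervals.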

How the data were processed

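UMI counts per gene and cell were deposited by the authors as 1 matrix of 31053 genes and 24590 barcodes for the 3 libraries, told apart by the barcode suffix in the labels. Cell Ranger and the build mm10 are named in the submitters' processing notes; their versions and annotation are not given in the sources used here. Libraries held 47651767 (S961), 40102058 (recovered) and 38265969 (control) UMIs. Members and gene lists were chosen with earlier results of these data known. UMIs were summed per library over members and other beta cells and tested with edgeR 4.0.16 (TMM, quasi-likelihood, library as a block, Benjamini-Hochberg over 12033 genes above 0.895 CPM, adjusted p under 0.05). Alternatives covered depth matching, thinning, split UMIs, other limits and choice genes, DESeq2 1.42.0, mixed cells and each library left out. Named are called genes of the interferon lists, the 20 lowest adjusted p in each direction, up to 4 per other list and fixed genes; the summary gives those that carry each group, and others named were chosen after their values were seen. Scrublet (scanpy 1.11.5) called 77, 24 and 3 of 3507, 3537 and 4270 cells in S961, recovered and control libraries, 0 of them members; at 0.0703% it had not worked in the control library, and mixed cells were counted by markers instead. Barcode sequences shared between libraries numbered 11, 11 and 29, and 1 belonged to a member. Promoter letters come from RefSeq. Of 310 listed genes 307 were in the table. Scripts were tested on simulated data. Results for some genes are not reported here.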

Additional observations from a re-analysis of the deposited data

Results flagged for a closer look

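The lipase gene Pnlip, an acinar transcript, moved in opposite directions in the libraries: its log2 ratio of members over other beta cells was -3.50 in the S961 library and 0.79 in the recovered library. With 1 library a group, the difference was not tested.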

How the results depend on the processing

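With 2 residual degrees of freedom, calls depended on the settings. The 208 genes higher and 70 lower in members became 94 and 25 with UMIs split in 2 parts, 104 and 30 for the top 10%, 115 and 9 by DESeq2, and 41 and 0 without the library block (edgeR; 373 lower at an unadjusted p under 0.05). Higher genes numbered 121 with cells thinned to 2000 UMIs. Lower genes numbered 38 with depth-matched cells, 44 chosen without Ifit3, 108 for the top 2.5% and 144 with no filter. Leaving out 1 library gave 133 to 231 higher and 32 to 105 lower genes. Interferon-side genes higher ranged from 35 (no block) to 62. The share of members in S961, recovered and control was 1.5%, 2.89% and 2.77% for the top 2.5%, 7.89%, 12.3% and 9.46% for the top 10%, and 1.70%, 3.83% and 3.02% when thinned. With depth matching the sensor median was 2.23 and the NF-kB median 0.31. Selection genes in split UMIs stood at 245, 367 and 132 CPM in members, against 8.48, 10.5 and 10.2 in other beta cells.

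Reversed log2 fold changes were Ighm (-3.55 top 2.5%, -4.17 thinned, -4.35 without Isg15), Igkc (-5.43, -5.04 and -5.23 in those settings, -1.70 without mixed cells, and -1.71 to 11.17 with 1 library left out), Sst (0.37 split UMIs, 0.14 top 10%, 0.33 thinned), Cela1 (-2.88 to 0.10) and Pnlip (-2.86 to 0.42) with 1 library left out, the positive values without the S961 library, Atf3 (-0.52 split UMIs), Stmn1 (1.35 without Ifit1) and Pcna (0.21 thinned, 0.027 without Ifit1). The cause was not tested, except that Ighm and Igkc rest on 1 cell. Of 104 named genes called, 30 kept direction and call in all 22 settings that gave a value. The settings on at least 2 selection UMIs, on all other beta cells and on mixed cells were added after seeing the data. No paired analysis was possible because the labels give 1 sample a group and no shared replicate numbers; the library block pairs sums within a library.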

Other observations

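Among the 128 genes higher in members that no list held, several encode products known from low oxygen and sugar metabolism; they were picked after their values were seen. Ero1l, an oxidase that forms disulfide bonds in the endoplasmic reticulum, had a log2 fold change of 0.84 with 1028 UMIs in 219 members. Egln1, an oxygen-sensing hydroxylase, stood at 0.62, Gys1, the glycogen synthase of muscle and many other tissues, at 1.06, and Stbd1, which binds glycogen, at 1.21. The glycolytic genes Gpi1 (0.52) and Pgam1 (0.47) were called on 1210 and 2071 UMIs. Nampt, which makes a precursor of NAD, stood at 0.94.

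Other unlisted genes are known to respond to interferon. Samd9l had a log2 fold change of 1.44 with 159 UMIs in 103 members, Il18bp, a decoy for interleukin 18, stood at 0.95, and Trafd1 at 0.83. Epsti1 (3.06) passed the filter only with members counted, had 40.0% of its UMIs in 1 member and was not called without mixed cells (adjusted p = 0.065, edgeR). The actin genes Actg1 (0.55) and Actb (0.36) were called too, Actb not without mixed cells (adjusted p = 0.12, edgeR).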
